A study of Mus musculus with 8 samples.

Results

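In fasted mouse liver, 10 genes of coenzyme A (CoA) metabolism, all that the selection names, were followed out of 20894 genes in the deposited table. They are the pantothenate kinase genes Pank1, Pank2 and Pank3, the later synthesis genes Ppcs, Ppcdc and Coasy, the pantetheinase genes Vnn1 and Vnn3, and the CoA hydrolase genes Nudt7 and Nudt19. The list was chosen by function and with the counts and fold changes of this same comparison in all 8 libraries already known, so these values describe the livers and support nothing by themselves. Wild-type mice carried an AAV8 vector, an adeno-associated virus that enters liver cells efficiently. In the POLR2G group (4 libraries) the TBG promoter, which is active mainly in hepatocytes, drove POLR2G, a subunit of RNA polymerase II. In the GFP control group (4 libraries) the same promoter drove green fluorescent protein. Both groups thus received virus and both were fasted during the day before the liver was taken. Poly-A RNA was sequenced. The labels used here give neither age, sex nor vector dose and do not say which animal a library came from. The p-values therefore reflect only how far these 8 libraries scatter, which may be technical.

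CoA carries acyl groups through fatty acid oxidation, the citric acid cycle and lipid synthesis, and the liver raises its CoA content during fasting. Synthesis starts from vitamin B5 (pantothenate), which pantothenate kinases phosphorylate in the rate-limiting step. PPCS, PPCDC and the bifunctional enzyme CoA synthase (COASY) finish the cofactor. Nudix hydrolases of the peroxisome (NUDT7, NUDT19) cleave CoA, and vanin pantetheinases split the pantetheine that arises from its breakdown into pantothenate and cysteamine. Vnn1 and Pank1 are known targets of PPARA, the nuclear receptor of the fasted liver.

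Total estimated counts were 16362899 to 22165491 in the POLR2G libraries and 14159056 to 18865284 in the GFP control libraries. Polr2g measured 2412 ± 154 CPM (counts brought to a common library size by TMM factors) in POLR2G livers and 13.7 ± 1.003 CPM in GFP control livers (SD, n = 4 each), so every library matched its group. Defining hepatocyte markers (7 of 7 in the table) summed to 112330 to 126320 CPM in POLR2G livers and 119130 to 139970 CPM in GFP control livers. Kupffer cell markers (7 of 7, Cd68 under 1 CPM) summed to 187 to 371 CPM in POLR2G livers and 172 to 270.4 CPM in GFP control livers. Neutrophil and myeloid markers (5 of 5) reached at most 1.32 CPM in POLR2G and 1.39 CPM in GFP control livers, with Ly6g at 0 in every library. In bulk tissue, fewer cells of a type and less RNA per cell cannot be told apart. GFP control replicate 3 stood apart from its group in male-biased liver genes, whose mean log2 CPM is given as a score relative to the GFP control mean. The score was 0.38 to 0.58 in the POLR2G libraries and -0.72 in GFP control replicate 3, against 0.040 to 0.48 in the other 3 GFP control libraries. Those 16 genes, all in the table, summed to 43462 to 55091 CPM in POLR2G livers and 32800 to 44050 CPM in GFP control livers. The difference in Vnn1 and Nudt7 and the within-group coefficients that lean on this library are given with and without it. By chi-square over its degrees of freedom across genes, GFP control replicate 1 differed from replicates 2, 3 and 4 by 76.9, 141 and 77.3. Replicate 3 differed from replicates 1, 2 and 4 by 141, 55.2 and 61.5. The male-biased score also follows Vnn1 inside the groups (Pearson r 0.98), so leaving out replicate 3 is no independent check of Vnn1.

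None of the 10 members passed the threshold of 0.05 on the adjusted p of edgeR's quasi-likelihood test. Of the 10390 genes tested, 0.0385% passed, among them Polr2g itself, which ranked first by p. All 10 members passed the filter on low counts, 5 with a higher and 5 with a lower fitted value in POLR2G livers, or 2 higher and 8 lower when libraries were scaled by their totals only. Their median log2 fold change was 0.0025 with TMM scaling, beside -0.0031 over all genes tested. With library totals only, the median over all genes tested was itself lower, at -0.079. At an unadjusted p under 0.05 edgeR gave 3 members (Vnn1 and Pank3 lower, Nudt7 higher), where 8.3% of all genes passed (4.1% lower, 4.2% higher). DESeq2 called 1 member, Vnn1, and 1.41% of the 9577 genes to which it gave an adjusted p. With limma-voom 0 members and 0.0289% of the 10390 genes were called. The POLR2G and GFP control libraries did not overlap for 1 member, Vnn1, which was lower, as for 5.51% of all genes (2.68% lower). Since this comparison was known when the list was drawn up, nothing is read from these counts.

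**Figure D1:**
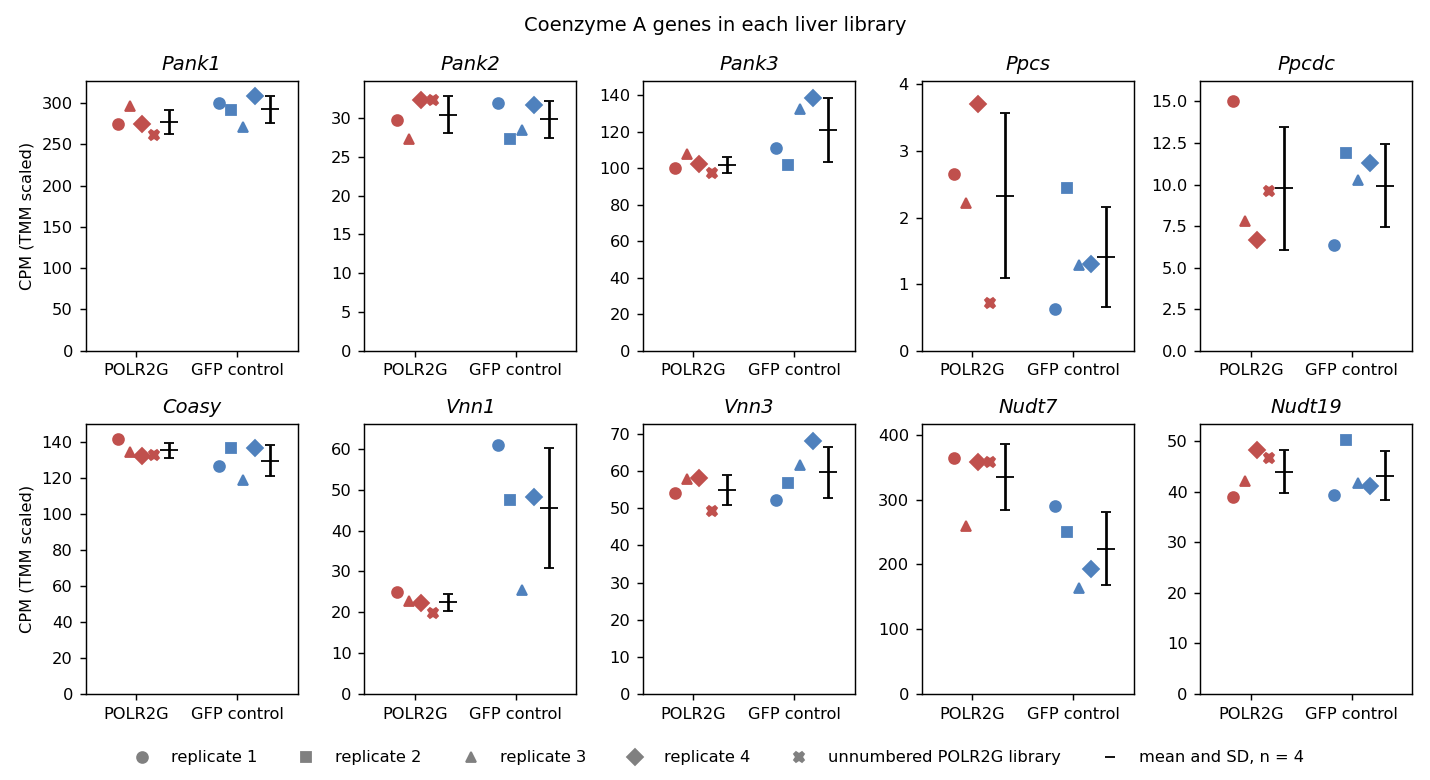
CPM (vertical axes, from 0) of the 10 coenzyme A genes in each library, POLR2G on the left and GFP control on the right of each panel. Symbols mark the replicate number and black bars the mean and SD of 4 libraries; for Vnn1 the 4 POLR2G libraries (19.9 to 24.9 CPM) lie below all GFP control libraries (25.5 to 60.9 CPM).

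Windows around annotated starts follow for Pank3 and Nudt7, whose unadjusted p was among the lowest, for Pank1, the kinase gene with the most counts, and for Vnn3, the neighbour of Vnn1. They run from 250 bases before to 50 bases after a start, in RefSeq's GRCm38.p6 sequence and in the direction of the gene. RefSeq windows were at hand for 8 of the 10 members. Pank1 has a pair of starts, at chr19:34879406-34879705 (minus strand) and chr19:34877868-34878167 (minus strand), and the gene's counts do not separate them. Pank3 is at chr11:35769245-35769544 (plus strand), Vnn3 at chr10:23851212-23851511 (plus strand) and the Nudt7 window shown at chr8:114133368-114133667 (plus strand). Capitals mark exact matches, on either strand, to CCAAT, to GGGCGG (the GC box) or to TATAAA, which share no bases here.
Pank1, first start: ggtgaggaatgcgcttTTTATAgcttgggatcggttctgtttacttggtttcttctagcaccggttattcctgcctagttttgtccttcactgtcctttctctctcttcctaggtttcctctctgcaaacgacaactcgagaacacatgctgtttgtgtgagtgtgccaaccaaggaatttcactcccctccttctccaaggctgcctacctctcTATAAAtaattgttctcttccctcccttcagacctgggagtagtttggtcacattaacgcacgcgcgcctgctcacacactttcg
Pank1, second start: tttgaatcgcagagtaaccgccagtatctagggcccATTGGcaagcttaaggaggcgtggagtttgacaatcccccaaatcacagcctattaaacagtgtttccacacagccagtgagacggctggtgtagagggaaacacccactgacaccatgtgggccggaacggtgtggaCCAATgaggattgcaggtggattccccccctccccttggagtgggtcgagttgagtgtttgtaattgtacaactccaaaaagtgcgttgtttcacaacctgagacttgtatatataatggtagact
Pank3: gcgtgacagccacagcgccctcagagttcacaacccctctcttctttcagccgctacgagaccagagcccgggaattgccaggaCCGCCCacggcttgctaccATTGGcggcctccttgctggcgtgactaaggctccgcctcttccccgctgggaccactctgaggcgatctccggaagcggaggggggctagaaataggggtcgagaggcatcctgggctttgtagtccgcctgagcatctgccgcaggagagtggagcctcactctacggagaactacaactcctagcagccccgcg
Vnn3: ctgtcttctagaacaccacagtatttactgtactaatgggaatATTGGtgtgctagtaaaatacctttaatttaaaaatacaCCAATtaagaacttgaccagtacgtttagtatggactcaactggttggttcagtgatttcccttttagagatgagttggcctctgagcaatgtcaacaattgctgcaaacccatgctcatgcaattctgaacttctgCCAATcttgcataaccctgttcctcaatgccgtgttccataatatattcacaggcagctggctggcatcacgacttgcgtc
Nudt7: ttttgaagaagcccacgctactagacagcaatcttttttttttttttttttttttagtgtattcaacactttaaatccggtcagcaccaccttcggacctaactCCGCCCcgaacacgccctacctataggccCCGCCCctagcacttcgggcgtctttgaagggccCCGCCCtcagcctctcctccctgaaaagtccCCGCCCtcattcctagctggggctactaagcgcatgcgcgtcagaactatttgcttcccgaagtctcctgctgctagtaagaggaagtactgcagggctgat

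The first Pank1 window holds TATAAA from 35 to 30 bases before the start and the second holds CCAAT from 76 to 72 bases before it. The Vnn3 window holds 3 CCAAT matches and 4 CpG dinucleotides, where 3.37% of all 32851 windows hold 3 or more CCAAT matches. The Nudt7 window holds 4 GGGCGG matches and 15 CpG dinucleotides, where 5.49% of all windows hold 4 or more. Over all 12 windows, which come from 8 members, 5 held CCAAT, 6 GGGCGG and 1 TATAAA, against 37.4%, 35.7% and 13.6% of all windows. Some genes have several windows, and those of Nudt7 overlap and hold the same 4 GGGCGG matches. The half-site AGGTCA of nuclear receptors was in 2 member windows (Ppcs and Ppcdc) and in 16.3% of all, and 2 half-sites spaced by 1 base (AGGTCANAGGTCA) were in 0 member windows and in 0.0396% of all. These are matches of letters, not sites.

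Among the kinases, Pank3 had the larger difference, and Pank1, the most abundant kinase by CPM, differed by about its SD between libraries. Pank1 (ENSMUSG00000033610; GRCm38 chromosome 19, 34806940 to 34879455, minus strand) measured 274, 296, 274 and 262 CPM in POLR2G replicates 1, 3 and 4 and the unnumbered POLR2G library, against 299, 291, 271 and 309 CPM in GFP control replicates 1 to 4. The groups overlapped, and its log2 fold change was -0.081 (SE 0.0680, edgeR adjusted p = 0.819). Pank3 (ENSMUSG00000018846; chromosome 11, 35769484 to 35791285, plus strand) measured 100.3, 108, 103 and 97.3 CPM in the same POLR2G libraries, against 111, 102, 133 and 139 CPM in the GFP control libraries. GFP control replicates 3 and 4 were the high ones, and replicate 2 lay within the POLR2G range. The log2 fold change of Pank3 was -0.25 (SE 0.102, edgeR adjusted p = 0.547). Pank2 (ENSMUSG00000037514; chromosome 2, 131262495 to 131299188, plus strand), whose human counterpart encodes a mitochondrial kinase, measured 27.3 to 32.4 CPM in POLR2G livers and 27.3 to 32.0 CPM in GFP control livers, nearly the same range in both (log2 fold change 0.028, SE 0.0876). The 3 kinases together measured 409 ± 16.6 CPM in POLR2G livers and 443 ± 25.5 CPM in GFP control livers (SD, n = 4 each), and the groups overlapped. Per length, Pank1 made up 64.0 ± 1.17% of the 3 kinases in POLR2G livers and 62.8 ± 2.84% in GFP control livers.

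The later synthesis genes differed greatly in level. Coasy and Ppcdc had log2 fold changes near 0, while that of Ppcs was larger and imprecise. Coasy (ENSMUSG00000001755; chromosome 11, 101082565 to 101086619, plus strand), which encodes the enzyme of the last steps, measured 132 to 142 CPM in POLR2G livers and 119 to 137 CPM in GFP control livers. Its log2 fold change was 0.062 (SE 0.0671, edgeR adjusted p = 0.871). Ppcdc (ENSMUSG00000063849; chromosome 9, 57385095 to 57440124, minus strand), a decarboxylase gene, measured 15.01, 7.79, 6.665 and 9.58 CPM in POLR2G replicates 1, 3, 4 and the unnumbered library, and 6.33, 11.9, 10.3 and 11.3 CPM in GFP control replicates 1 to 4. The highest and nearly the lowest value were both in POLR2G livers, and the log2 fold change was -0.023 (SE 0.280). Ppcs (ENSMUSG00000028636; chromosome 4, 119418530 to 119422420, minus strand), the gene of the enzyme that joins cysteine to phosphopantothenate, had only 55, 38, 65 and 12 counts in the POLR2G libraries and 11, 42, 20 and 24 counts in the GFP control libraries. Its log2 fold change was 0.72 (SE 0.530, edgeR adjusted p = 0.781), and the groups overlapped. The coefficient of variation was 53.2% in POLR2G livers and 53.3% in GFP control livers, where counting error alone gives 18.9% and 22.7% in the same groups. The log2 fold change was 0.40 without POLR2G replicate 4, 0.47 without GFP control replicate 1 and 1.12 without GFP control replicate 2. The table also gives Actb, an abundant transcript of most cells, 0 to 29 counts in a library. Whether each gene value covers all annotated transcripts is not known, and 6 of the 10 members have 2 or more annotated coding transcripts (Vnn1, Vnn3, Pank3 and Nudt19 have 1).

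Vnn1 had the lowest log2 fold change of the members. Vnn1 (ENSMUSG00000037440; chromosome 10, 23894688 to 23905343, plus strand), the membrane-bound pantetheinase of liver and gut, measured 24.9, 22.8, 22.2 and 19.9 CPM in POLR2G replicates 1, 3, 4 and the unnumbered library. GFP control replicates 1 to 4 measured 60.9, 47.5, 25.5 and 48.3 CPM. The groups did not overlap, but GFP control replicate 3 lay 0.586 CPM above the highest POLR2G library and 22.0 CPM below the next GFP control library. The mean was 22.5 ± 2.09 CPM in POLR2G livers and 45.6 ± 14.7 CPM in GFP control livers, a 2.03-fold lower level in POLR2G livers (log2 fold change -1.02, SE 0.222, edgeR adjusted p = 0.226, unadjusted rank 53 of 10390). Without GFP control replicate 3 the log2 fold change was -1.22 (SE 0.116, edgeR adjusted p = 0.0150). Without GFP control replicate 1, the highest for Vnn1, it was -0.85 (SE 0.208, edgeR adjusted p = 0.265). Of the edgeR fits with a library left out, only the one without GFP control replicate 3 passed Vnn1. DESeq2 gave an adjusted p of 0.00235 on all 8 libraries, and over all alternatives the adjusted p ran from 0.00235 to 0.649. The coefficient of variation of Vnn1 was 9.29% in POLR2G livers and 32.2% in GFP control livers.

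Vnn3 (ENSMUSG00000020010; chromosome 10, 23851462 to 23869843, plus strand) is the neighbour of Vnn1 on the same strand, with 24844 bases between them. It measured 54.1, 57.9, 58.2 and 49.4 CPM in the POLR2G libraries and 52.2, 56.8, 61.6 and 68.3 CPM in the GFP control libraries. The groups overlapped and the log2 fold change was -0.12 (SE 0.0958, edgeR adjusted p = 0.804). The ratio of Vnn1 to Vnn3 counts, which needs no scaling between libraries, was 0.410 ± 0.0355 in POLR2G livers and 0.781 ± 0.312 in GFP control livers (SD, n = 4 each). Here the groups did overlap, since POLR2G replicate 1 had a ratio of 0.461 and GFP control replicate 3 one of 0.414. The other 3 GFP control libraries had ratios of 0.708 to 1.17. The related sequences of Vnn1 and Vnn3 can share estimated counts. Their sum, which does not depend on that split, was 69.3 to 80.7 CPM in POLR2G livers and 87.2 to 117 CPM in GFP control livers, without overlap. Single genes did not overlap in 5.51% of all cases, and the sum contains Vnn1, known beforehand to be lower, so nothing is read from it.

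Nudt7 had the highest level per length among the members and, after Ppcs, the highest log2 fold change. Nudt7 (ENSMUSG00000031767; chromosome 8, 114133557 to 114154739, plus strand), the main peroxisomal CoA hydrolase gene of liver, measured 365, 259.7, 358 and 358 CPM in POLR2G replicates 1, 3, 4 and the unnumbered library. GFP control replicates 1 to 4 measured 290.0, 249.6, 164 and 193 CPM. Of the POLR2G libraries, 3 lay above every GFP control library, while POLR2G replicate 3 lay among them. The mean was 335 ± 50.5 CPM in POLR2G livers and 224 ± 56.4 CPM in GFP control livers, 1.495-fold higher in POLR2G livers (log2 fold change 0.58, SE 0.181, edgeR adjusted p = 0.419). Without GFP control replicate 3 its log2 fold change was 0.46 and its edgeR adjusted p was 0.475. Nudt19 (ENSMUSG00000034875; chromosome 7, 35547185 to 35556304, minus strand), a CoA hydrolase gene first described in mouse kidney, measured 38.9, 42.1, 48.3 and 46.6 CPM in the POLR2G libraries and 39.3, 50.2, 41.8 and 41.2 CPM in the GFP control libraries. Its groups overlapped throughout (log2 fold change 0.028, SE 0.101). The ratio of Nudt7 to Nudt19 counts was 7.67 ± 1.33 in POLR2G livers and 5.24 ± 1.49 in GFP control livers (SD, n = 4 each). GFP control replicate 1, at 7.37, lay above POLR2G replicate 3, at 6.17.

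**Figure D2:**
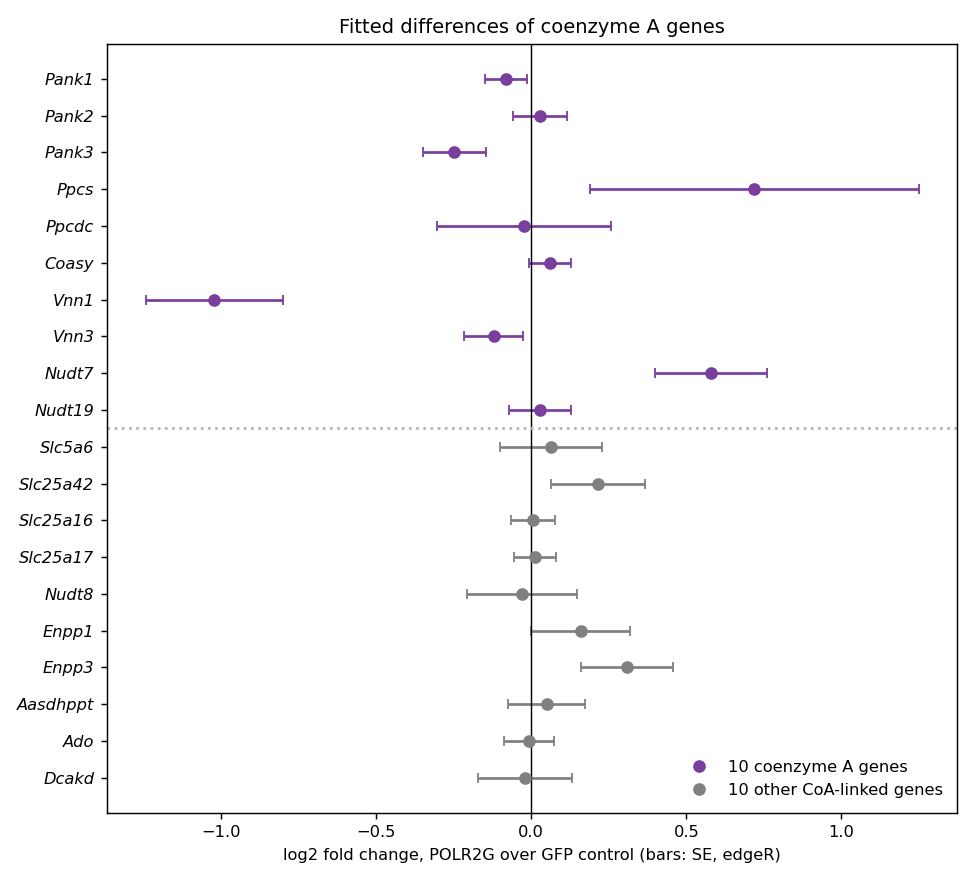
Log2 fold change of POLR2G over GFP control (horizontal axis) with its SE for the 10 coenzyme A genes (top, purple) and 10 other CoA-linked genes (bottom, grey), from the edgeR fit on all genes. Vnn1 lies at -1.02 and Nudt7 at 0.58, Ppcs at 0.72 has the widest bar (0.530), and the other 7 members lie between -0.25 and 0.062.

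Of 11 other genes that handle CoA or its precursors, 10 were in the table, and 0 of them passed by edgeR, where 0.0385% of all genes did. At an unadjusted p under 0.05 edgeR gave 0 of them, and DESeq2 and limma-voom also called 0. Their log2 fold changes ran from -0.029 to 0.31 with a median of 0.031, 7 of them above 0. The smallest p belonged to Enpp3, an ectonucleotide pyrophosphatase gene, at 60.7 ± 6.30 CPM in POLR2G livers and 49.1 ± 9.66 CPM in GFP control livers (log2 fold change 0.31, SE 0.147, edgeR adjusted p = 0.633). Next were Slc25a42, the gene of a mitochondrial CoA carrier (0.21, SE 0.151), and Enpp1, which also encodes an ectonucleotide pyrophosphatase (0.16, SE 0.159). The multivitamin transporter gene Slc5a6, which brings pantothenate into cells, measured 16.3 ± 3.35 CPM in POLR2G livers and 15.5 ± 2.28 CPM in GFP control livers.

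Levels of different genes were compared as CPM per kb of the longest annotated coding transcript. In POLR2G livers the order was Nudt7 (94.6 ± 14.3 CPM per kb), Coasy (56.7 ± 1.79), Pank1 (37.3 ± 1.94), Vnn3 (30.3 ± 2.27), Nudt19 (19.1 ± 1.86), Pank3 (13.8 ± 0.591), Vnn1 (9.29 ± 0.863), Pank2 (7.14 ± 0.564), Ppcdc (3.56 ± 1.35) and Ppcs (1.61 ± 0.858). Of these neighbours only Ppcdc and Ppcs overlapped in their library ranges. In GFP control livers the order was Nudt7 (63.3 ± 15.9 CPM per kb), Coasy (54.3 ± 3.62), Pank1 (39.5 ± 2.18), Vnn3 (33.0 ± 3.80), Vnn1 (18.9 ± 6.08), Nudt19 (18.8 ± 2.10), Pank3 (16.4 ± 2.37), Pank2 (7.00 ± 0.556), Ppcdc (3.62 ± 0.910) and Ppcs (0.979 ± 0.522). There the ranges overlapped between Nudt7 and Coasy, between Pank1 and Vnn3, and among Vnn1, Nudt19 and Pank3. Vnn1 thus held the seventh place in POLR2G livers and the fifth in GFP control livers, and the other genes kept their order among themselves. The order rests on the transcript length used. With the shortest coding transcript, Pank1 would stand at 125 CPM per kb and Nudt7 at 317 CPM per kb in GFP control livers.

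**Figure D3:**
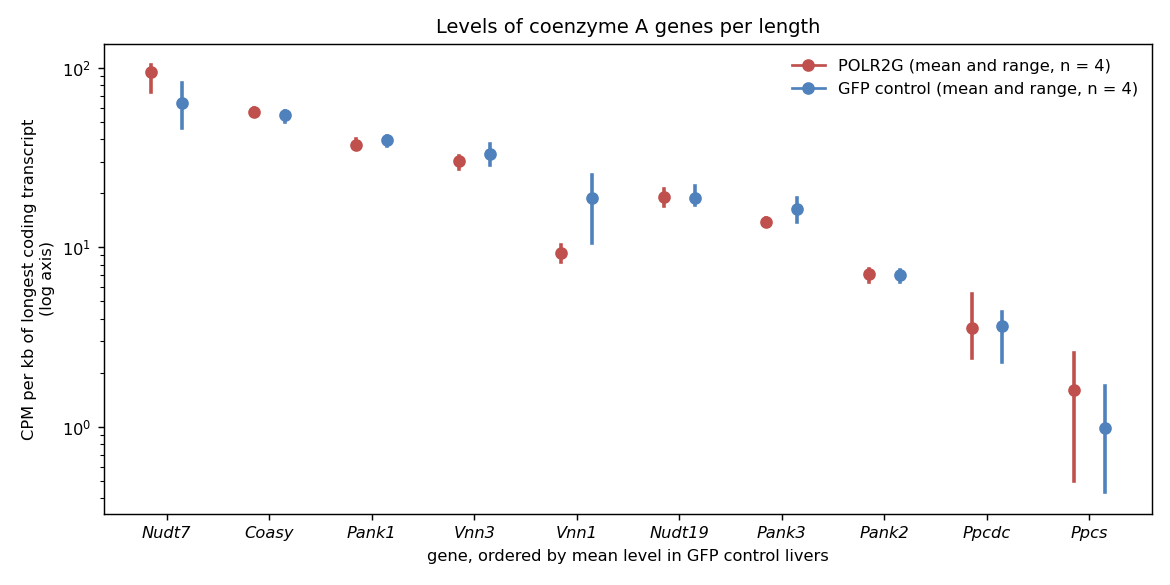
Mean level (points) and range over 4 libraries (bars) of each coenzyme A gene in CPM per kb of its longest coding transcript, on a log axis, with POLR2G (red) left of GFP control (blue). Levels run from 94.6 CPM per kb for Nudt7 in POLR2G livers to 0.979 for Ppcs in GFP control livers, and Vnn1 is the gene whose 2 bars do not overlap.

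As a set, the members did not vary together inside the groups. For each of the 45 pairs, Pearson's r was taken over the 8 libraries on log2 CPM after the mean of the own group was removed, so the difference between the groups plays no part. The coefficients are descriptions over libraries that share their scaling. They ran from -0.78 to 0.79 with a median of -0.00036. The highest were Pank3 with Vnn3 (0.79), Pank1 with Vnn1 (0.70), Vnn1 with Nudt7 (0.69) and Coasy with Vnn1 (0.67). The lowest were Pank3 with Nudt7 (-0.78) and Vnn3 with Nudt7 (-0.70). Without GFP control replicate 3, Pank3 with Vnn3 was at 0.80 and Pank3 with Nudt7 at -0.72. Other pairs became extreme only without it. Ppcdc with Coasy went from 0.52 to 0.93, Pank1 with Nudt7 from -0.018 to -0.76 and Vnn1 with Nudt19 from -0.16 to -0.73. The high values of Vnn1 rested on that library: without it Pank1 with Vnn1 was at 0.29, Vnn1 with Nudt7 at 0.37 and Coasy with Vnn1 at -0.22.

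Within the groups Vnn1 followed the male-biased liver genes, and how many other genes did so as closely was not counted. Its deviations had a Pearson r of 0.98 and a Spearman rho of 0.90 with those of the male-biased score over 8 libraries, 0.90 (Pearson) without GFP control replicate 3 and 0.72 without GFP control replicates 1 and 3, the farthest from the median. Between the groups the directions differed: the score was at 0.38 to 0.58 in POLR2G livers and at -0.72 to 0.48 in GFP control livers, while Vnn1 was lower in POLR2G livers. For Nudt7 the Pearson r with the male-biased score was 0.72 and the Spearman rho 0.64, but the r was -0.054 without those 2 libraries, so the relation rested on them. The part of this variation in the difference between the groups was not tested.

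**Figure D4:**
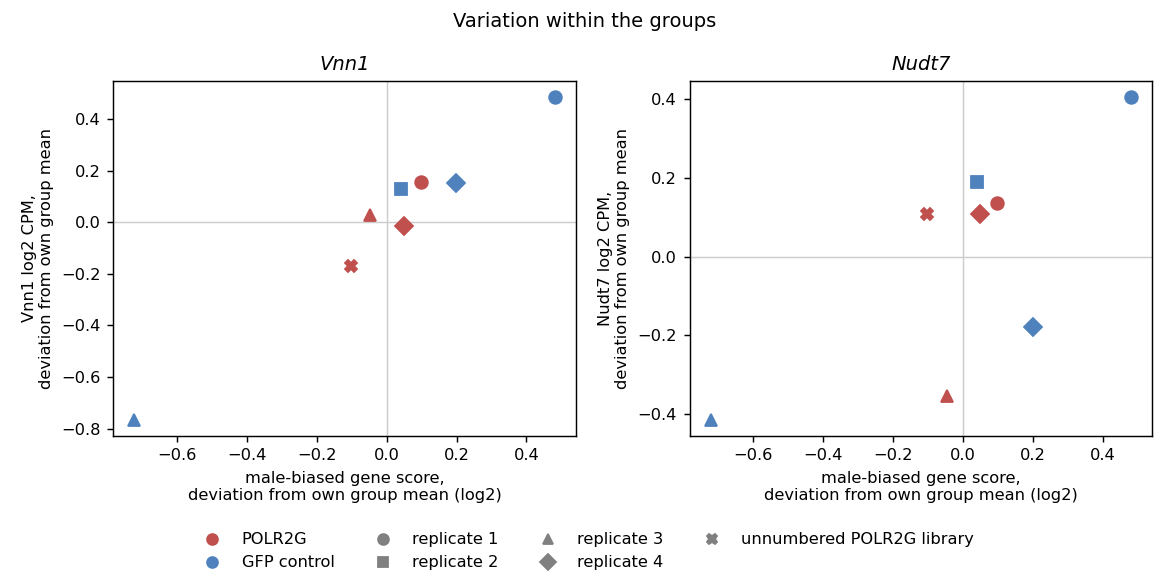
Deviation of log2 CPM from the mean of the own group for Vnn1 (left) and Nudt7 (right), against the deviation of the male-biased gene score (log2, horizontal axes), for 4 POLR2G (red) and 4 GFP control (blue) libraries with symbols for the replicate. Vnn1 follows the score (Pearson r 0.98), with GFP control replicate 3 at the lower left; Nudt7 does so less closely (0.72).

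A list of 17 PPARA targets other than the members had 16 genes in the table, of which 15 had a lower fitted value in POLR2G livers (median log2 fold change -0.79, beside -0.0031 over all genes), where 50.7% of all genes tested did. By edgeR 1 of the 16 passed, where 0.0385% of all genes did. It was drawn up with earlier results of these data known. Its score was -1.31 to -0.60 in the POLR2G libraries and -0.30 to 0.14 in the GFP control libraries, without overlap. Its genes summed to 4697 to 5764 CPM in POLR2G livers and 5391 to 6780 CPM in GFP control livers, and these sums overlapped. Inside the groups Vnn1 had a Pearson r of -0.43 and a Spearman rho of -0.50 with the list over 8 libraries. Among the GFP control libraries, replicate 1 had the lowest score and the most Vnn1, and replicate 3 the highest score and the least Vnn1. The Pearson r was -0.72 without POLR2G replicates 1 and 3, the farthest from the median, with both of those GFP control libraries kept. Nudt7 ran against the list inside the groups, with a Pearson r of -0.81 and a Spearman rho of -0.76, and -0.83 (Pearson) without POLR2G replicates 1 and 3. POLR2G replicate 3 had both the lowest Nudt7 level and the highest score of this list among the POLR2G libraries.

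The genes most like 3 of the members were sought among 5890 other genes by the same within-group r over 8 libraries. The highest r among so many genes is high by selection alone. How high it would be for unrelated genes was not tested, so no relation is read from the names. Vnn1 was most like Acy3, an aminoacylase gene (0.98), Bdh1, a ketone body dehydrogenase gene (0.97), and mt-Nd2, a mitochondrially encoded subunit of respiratory complex I (0.97). Their log2 fold changes were 0.22 (SE 0.134), -0.046 (SE 0.173) and 0.056 (SE 0.139), beside -1.02 for Vnn1. Without GFP control replicate 3 the r with Vnn1 was 0.94 for Acy3, 0.82 for Bdh1 and 0.88 for mt-Nd2. Pank1 was most like Slc25a20, the gene of the mitochondrial acylcarnitine carrier (0.96), Xpo7 (0.95) and Naa50 (0.94). Nudt7 was most like Mgst1, a microsomal glutathione transferase gene (0.99), Srm, the spermidine synthase gene (0.98), and Tuba1c, a tubulin gene (0.98).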

How the data were processed

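Poly-A RNA from snap-frozen mouse liver was sequenced from libraries that keep the strand, per the labels' protocols. The authors deposited 1 table of estimated counts per gene, whole numbers that were not normalized, for 20894 genes and 8 libraries. The submitters' processing notes name Salmon 1.2.1, which estimates how abundant transcripts are, together with the builds GRCm38 and mm10. Which annotation was used, and how values were rounded and summed over transcripts, is not given in the sources used here. GENCODE M21 gave symbols for 20817 of the identifiers, and the same release on GRCm38 gave transcripts and 1-based coordinates. Promoter windows are RefSeq's for GRCm38.p6.

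Library names tied columns to samples. For 1 POLR2G column the number is in no label, and it stands as the unnumbered POLR2G library. Libraries of the same group, 12 pairs in all, differed beyond counting noise (chi-square over its degrees of freedom from 13.6 to 141). Each was treated as a sample of its own, though such scatter does not show that the libraries come from different animals. The members and all gene lists were chosen with earlier results of these data known.

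Groups were compared by quasi-likelihood in edgeR 4.0.16 with TMM factors in R 4.3.3, two-sided, with no term but the group. Genes were kept by filterByExpr (minimum count 10, minimum total 15), which left 10390, and p-values were adjusted over all of them (Benjamini-Hochberg). SE is the absolute log2 fold change over the square root of F. Log2 CPM used a prior count of 2. Alternatives were DESeq2 1.42.0, limma-voom (limma 3.58.1), other scalings and filters, Polr2g left out of library sizes, a replicate block and each library left out. The edgeR and DESeq2 steps were run on simulated counts with known fold changes. How often differences of the size seen in the members are recovered is not reported here. Named genes are the 10 members, the 3 other CoA-linked genes with the smallest p, and for Vnn1, Pank1 and Nudt7 the 3 genes with the highest within-group r at a mean log2 CPM of at least 3. Slc5a6, Actb and the members of the top and bottom pairs were singled out after their values were seen. The gene Pank4 was not analysed here.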

Additional observations from a re-analysis of the deposited data

Results flagged for a closer look

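Nudt7 in POLR2G replicate 3 measured 259.7 CPM, against 358 to 365 CPM in the other 3 POLR2G libraries. Its gap to the nearest of them was 0.935 of the group's whole range, above Dixon's critical value for 4 libraries. In all, 20 sets of 4 libraries (10 genes in 2 groups) were examined this way, and chance gives about 1 in 20. The same library had the highest score of the PPARA target list among the POLR2G libraries, -0.60 against -1.31 to -1.07 in the other 3. Without it the log2 fold change of Nudt7 was 0.68 (SE 0.177, edgeR adjusted p = 0.379), and with it 0.58 (SE 0.181).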

How the results depend on the processing

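Vnn1, Pank1, Pank3 and Vnn3 kept a negative and Nudt7 and Ppcs a positive log2 fold change under all 17 alternatives, and Vnn1 ran from -1.22 to -0.85, Nudt7 from 0.46 to 0.73 and Ppcs from 0.40 to 1.45. Of the 170 recomputed fold changes of members, 153 kept their direction and side of the threshold, 2 (both Vnn1) passed it and 15 turned their sign, all of genes near 0. With library totals only, Pank2 was at -0.043, Coasy at -0.014 and Nudt19 at -0.050, where the median over all genes tested was -0.079. Leaving out 1 library gave -0.014 to 0.076 for Pank2, -0.31 to 0.12 for Ppcdc and -0.021 to 0.11 for Nudt19. The number of all genes called was 4 in the main analysis, with Polr2g among them. It was 135 with DESeq2, 1 with library totals only and 1 to 6 with a library left out. Of the latter fits, those without POLR2G replicate 1 or 4 called 1. Those without the unnumbered POLR2G library or GFP control replicate 2 called 2. The number of members called was 0 in the main analysis, 1 with DESeq2 and 0 to 1 with a library left out (1, Vnn1, without GFP control replicate 3). The cause of these changes was not tested. The median within-group r of the 45 pairs ran from -0.050 to 0.13 with a library left out.

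Same-numbered libraries varied together little (r of deviations over 10390 genes 0.064, -0.025 and 0.036 for numbers 1, 3 and 4). Of 6 libraries, 3 were most like their own number. The main analysis did not use the numbers as pairs, and 3 shared numbers are too few to tell whether they pair libraries. With the replicate number as a block over the 6 libraries with shared numbers, 2 genes and 0 members were called, Pank2 was at -0.046, Ppcdc at 0.022 and Ppcs at 1.45. Ppcs had 11 to 65 counts in a library and Ppcdc 112 to 311, and the coefficient of variation of Ppcdc was 37.9% in POLR2G livers and 25.1% in GFP control livers, where counting error alone gives 7.99% and 7.89%.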

Other observations

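Ratios of counts between members inside a library need no scaling between libraries. Nudt7, which encodes a CoA hydrolase, had 1.22 ± 0.231 counts for each count of Pank1, which encodes the kinase of the first step of synthesis, in POLR2G livers, and 0.765 ± 0.178 in GFP control livers (SD, n = 4 each). The groups overlapped, since POLR2G replicate 3 was at 0.877 and the highest GFP control library at 0.969. The ratio of Vnn1 to Pank1 counts was 0.0812 ± 0.00687 in POLR2G livers and 0.154 ± 0.0451 in GFP control livers. Its ranges, 0.0760 to 0.0911 in POLR2G livers and 0.0943 to 0.203 in GFP control livers, did not overlap. They nearly met, with GFP control replicate 3 at 0.0943. Single genes did not overlap in 5.51% of all cases, and Vnn1 was known beforehand to be lower, so nothing is read from this ratio. The ratio of Pank1 to Pank3 counts was 2.71 ± 0.0364 in POLR2G livers and 2.46 ± 0.386 in GFP control livers. Its spread in GFP control livers came with Pank3, whose coefficient of variation was 4.28% in POLR2G livers and 14.4% in GFP control livers, against 5.20% and 5.52% for Pank1 in the same groups. These differences were not tested, since the genes were chosen with this comparison known.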
